A study of Sus scrofa with 60 samples.

Results

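Liver transcripts of MLE-BDL pigs, which received parenteral nutrition (PN) with a mixed lipid emulsion (MLE) after bile duct ligation (BDL), were compared with those of ENT-sham pigs, which were enterally (ENT) fed after sham surgery. The comparison gives the joint difference of PN and BDL from a healthy fed liver, so it changes diet and surgery together. The pigs were taken by the diet and surgery in the sample labels, 8 MLE-BDL and 12 ENT-sham, or 20 of the 60 libraries of the series. All were pigs of either sex delivered by cesarean section shortly before term, and liver was collected on day 14. Every pig had an abdominal incision, a jugular catheter and PN during the first day. In BDL pigs the cystic and common bile ducts were tied off, and in sham pigs the liver was only handled. MLE pigs stayed on PN with SMOFlipid, an emulsion of soybean, fish and olive oil with medium-chain triglycerides. ENT pigs were moved to a milk replacer formula over the first week, so the controls were exposed to PN early on. The series also holds MLE-sham, ENT-BDL and groups given a soybean lipid emulsion (SLE).

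Read counts per gene summed to 16860061, 17186457 and 18370633 in MLE-BDL and 14776809, 17810100 and 21139248 in ENT-sham. As in all such triplets here, these are the lowest, the median and the highest pig. Levels are given in CPM, read counts scaled to a common library total by TMM factors, which correct for differences in composition. The libraries were liver by their markers, since all 23 hepatocyte genes checked had counts in every pig. ALB, the main plasma protein made by hepatocytes (chosen after its values were seen), was at 23453, 31336 and 40433 CPM in MLE-BDL and 27322, 70738 and 87243 CPM in ENT-sham. A gene was called when its adjusted p was under 0.05 and its fold change over 2 in edgeR's quasi-likelihood test. Changes are log2 fold changes of MLE-BDL over ENT-sham ± SE.

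ENT-sham replicate 2 stood apart. Its counts came close to those of ENT-BDL replicate 1, with a chi-square per degree of freedom of 1.87 over 17232 genes, whereas the other 209 pairs among the 20 pigs and that library ranged upward from 15 with a median of 90.7. At the 1619 genes called without it, it lay beyond the other 11 ENT-sham pigs on the side of MLE-BDL at 55.9%. For each of the other ENT-sham pigs, left out in the same way, that share was between 3.09% and 9.37%. There the other 11 included replicate 2, so a gene counted only where the pig also lay beyond replicate 2. This holds those shares down, and they are not a fully like measure. Whether the 2 libraries come from the same animal, with a sample swapped or sequenced under both labels, was not tested. If they do, the values of ENT-sham replicate 2 or of ENT-BDL replicate 1 do not stand for the labelled group. Both were kept in the fit, and the list counts and the changes of called genes in MLE-BDL against ENT-sham are given with and without ENT-sham replicate 2. The labels also carry a 3-digit identifier number whose meaning is not given in the sources used here. Only 2 of the numbers occurred in both groups, in 3 MLE-BDL and 2 ENT-sham pigs, so the 20 pigs compare the groups within a number only there; these 5 are called the shared-number pigs. The other groups link the remaining numbers, and in the fit of all 60 pigs with the number as a block, which takes its effect to be alike in every group, 1464 genes were called, 778 higher and 686 lower. In the 5 shared-number pigs, with the number as a term in the fit, 986 genes were called, 498 higher and 488 lower, and 36 of the 126 genes followed singly were no longer past both thresholds. Another 2 of the 126, SOX9 and MMP7, passed both there but not in the fit of all pigs.

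Bile made by hepatocytes leaves the liver through the bile ducts, and ligation holds bile acids back in the tissue. Ducts then proliferate and matrix builds up around them, which is known as the ductular reaction and biliary fibrosis. PN bypasses the gut, and with it the signals that feeding sends to the liver through bile acids, hormones and portal nutrients.

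The joint difference was broad and nearly even in direction. Both thresholds were passed by 1401 of 16210 genes tested (8.64%), with MLE-BDL above ENT-sham at 713 (4.40%) and below it at 688 (4.24%). Without ENT-sham replicate 2, 1619 of 16179 genes (10.01%) were called, 880 higher (5.44%) and 739 lower (4.57%). The calls shared by both fits numbered 1360, or 97.1% of the first and 84% of the second, and 0 of them differed in direction. At adjusted p under 0.05 and any fold change 5711 genes (35.2%) differed, 2963 higher (18.3%) and 2748 lower (17.0%). A change of at least 4-fold was found at 333 genes and of at least 8-fold at 112. The lowest pig of a group lay above the highest pig of the other at 693 genes (4.28%) with all 12 ENT-sham pigs and at 1408 (8.69%) with 11. The median log2 fold change over all genes was 0.02, and 0.01 without ENT-sham replicate 2. The balance of directions depended on scaling: with library totals alone 993 genes were higher and 486 lower, 67.1% against 50.9% with TMM, and the median over all genes moved to 0.19. Of the 916 list genes tested, 192 (21%) were called.

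**Figure D1:**
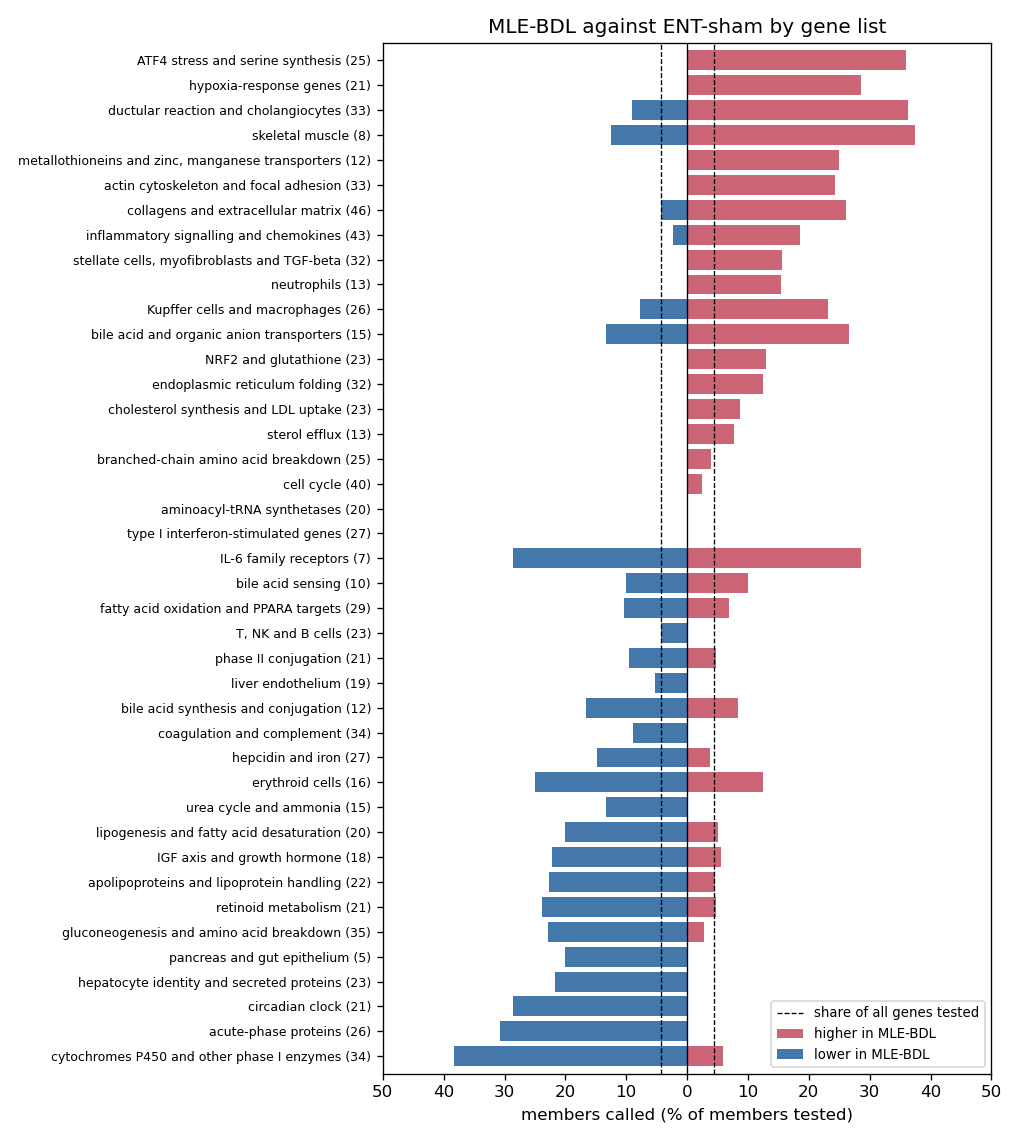
Percent of each gene list's tested members that rose (right) or fell (left) from ENT-sham to MLE-BDL, with the number tested in parentheses and dashed lines at the share of all genes (4.40% higher, 4.24% lower). The called phase I enzymes and acute-phase proteins lie mostly on the lower side, and the called ATF4 stress genes and ductular reaction genes mostly on the higher side.

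The largest fall was in HAMP, which encodes hepcidin, the hormone that blocks iron release into plasma (identifier 397207, chromosome 6, 44785863 to 44787303 of Sscrofa11.1). HAMP was at 0.052, 0.904 and 1.51 CPM in MLE-BDL and 39.9, 116 and 269 CPM in ENT-sham. Every MLE-BDL pig lay far below every ENT-sham pig, replicate 2 included (log2 fold change -7.33 ± 0.56, adjusted p = 8.8e-15, or -7.43 without ENT-sham replicate 2). In the list of hepcidin and iron genes 1 rose and 4 fell of 27 tested (1 rose and 5 fell without ENT-sham replicate 2), and the median log2 fold change was -0.38 (-0.40 without ENT-sham replicate 2). ATOH8, a transcription factor that responds to BMP signals, was at 2.37, 3.9 and 6.16 CPM in MLE-BDL and 7.23, 13.3 and 24.6 CPM in ENT-sham. Its groups did not overlap (log2 fold change -1.79 ± 0.20, adjusted p = 2.1e-10, or -1.85 without replicate 2; -0.92 and not called in the 5 shared-number pigs). BMP6, a BMP ligand that induces hepcidin and was chosen after its values were seen, fell as well (log2 fold change -1.62 ± 0.22, adjusted p = 2.7e-08, or -1.62 without replicate 2), and 7 of 8 MLE-BDL pigs lay below every ENT-sham pig. TFRC, the transferrin receptor that takes up iron, rose, from 21.3, 34 and 63.2 CPM in ENT-sham to 90.6, 111 and 153 CPM in MLE-BDL. All MLE-BDL pigs exceeded all ENT-sham pigs (log2 fold change 1.57 ± 0.19, adjusted p = 1.4e-09, or 1.51 without replicate 2; 0.83 and not called in the 5 shared-number pigs).

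Erythroid markers moved too. Among them 2 rose and 4 fell of 16 tested (2 rose and 4 fell without ENT-sham replicate 2), and the median log2 fold change was -1.13 (-1.25 without ENT-sham replicate 2). Their summed level was 277, 377 and 645 CPM in MLE-BDL, 546, 1222 and 2634 CPM in ENT-sham and 554, 1252 and 2634 CPM in the 11 ENT-sham pigs without replicate 2. The list had 17 genes in the table, all with counts, and HBB, a globin chain, made up 61.2% of the sum in MLE-BDL and 89.6% in ENT-sham. HBB fell (log2 fold change -2.22 ± 0.38, adjusted p = 4.8e-06, or -2.30 without replicate 2, and -1.26 and not called in the 5 shared-number pigs), and 7 of 8 MLE-BDL pigs lay below every ENT-sham pig. In bulk tissue, fewer cells of a type and less RNA per cell cannot be told apart. The part of erythroid cells in the change of TFRC was not tested.

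Phase I enzymes, the oxidases that make drugs, toxins and steroids more soluble, had the largest share of called falls among the lists examined here. In this list 2 rose and 13 fell of 34 tested (2 rose and 13 fell without ENT-sham replicate 2), and the median log2 fold change was -0.46 (-0.47 without ENT-sham replicate 2). CYP2E1, which oxidises ethanol and small solvents (identifier 403216, chromosome 14, 141690737 to 141703078), was at 5.02, 17.1 and 110 CPM in MLE-BDL and 163, 1214 and 1658 CPM in ENT-sham. The groups did not overlap, and the lowest ENT-sham pig was replicate 2 at 163 CPM, next to 523, 1253 and 1658 CPM in the other 11 (log2 fold change -5.27 ± 0.70, adjusted p = 2.7e-08, or -5.38 without replicate 2, and -5.20 and not called in the 5 shared-number pigs). FMO5, a flavin monooxygenase, was at 15.5, 20 and 69.3 CPM in MLE-BDL and 131, 607 and 756 CPM in ENT-sham. Again replicate 2 was the lowest control, at 131 CPM, and above every MLE-BDL pig (log2 fold change -4.29 ± 0.39, adjusted p = 6.9e-13, or -4.39 without replicate 2). FMO1, a related monooxygenase, fell from 564, 1382 and 2302 CPM in ENT-sham to 29.8, 191 and 288 CPM in MLE-BDL without overlap (log2 fold change -2.98 ± 0.33, adjusted p = 1.9e-10, or -3.06 without replicate 2, and -3.39 and not called in the 5 shared-number pigs). AOX1, an aldehyde oxidase, fell by 2.57 on the log2 scale (-2.66 without replicate 2). CYP2A19 (-5.06, or -5.20 without replicate 2), CYP2C49 (-3.80, or -3.89) and CYP2C36 (-3.68, or -3.63) also fell, but members of the CYP2 families are near copies, so counts may be split between them and each value is uncertain.

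Conjugating (phase II) enzymes and retinoid enzymes moved in part. For phase II, 1 rose and 2 fell of 21 tested (1 rose and 2 fell without ENT-sham replicate 2), and the median log2 fold change was -0.29 (-0.42 without ENT-sham replicate 2). With the identifier number as a block 7 were called. SULT2A1, which sulfates bile acids and steroids, was at 13.1, 27.5 and 46 CPM in MLE-BDL and 142, 210 and 319 CPM in ENT-sham. No pig of either group reached the range of the other (log2 fold change -2.89 ± 0.38, adjusted p = 1.9e-08, or -2.94 without replicate 2, and -2.15 and not called in the 5 shared-number pigs). GNMT, a methyltransferase of the methionine cycle, fell by 1.36 on the log2 scale (-1.44 without replicate 2), with 6 of 8 MLE-BDL pigs below every ENT-sham pig. The gene listed as SULT1A3, a phenol sulfotransferase with near-identical copies and thus uncertain, rose (log2 fold change 1.95 ± 0.25, adjusted p = 6.2e-09, or 1.96 without replicate 2). Retinoid metabolism had 1 member higher and 5 lower of 21 (2 rose and 5 fell without ENT-sham replicate 2), and its median of -0.13 (-0.17 without ENT-sham replicate 2) became 0.04 with library totals. DHRS3, which reduces retinal to retinol, was at 46.6, 53.1 and 69.8 CPM in MLE-BDL and 116, 139 and 164 CPM in ENT-sham. The separation was complete (log2 fold change -1.34 ± 0.14, adjusted p = 5.7e-11, or -1.37 without replicate 2). ADH4, an alcohol dehydrogenase that also oxidises retinol, fell (log2 fold change -3.65 ± 0.44, adjusted p = 3.2e-09, or -3.76 without replicate 2, and -1.84 and not called in the 5 shared-number pigs), although only 2 of 8 MLE-BDL pigs were below the lowest ENT-sham pig.

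Genes of bile acid handling moved in both directions. In synthesis and conjugation 1 rose and 2 fell of 12 tested (1 rose and 2 fell without ENT-sham replicate 2), and the median log2 fold change was -0.46 (-0.50 without ENT-sham replicate 2). SLC27A5, a ligase that activates bile acids for conjugation, was at 38.4, 64.9 and 93 CPM in MLE-BDL and 130, 380 and 537 CPM in ENT-sham. The groups did not overlap (log2 fold change -2.56 ± 0.30, adjusted p = 1.5e-09, or -2.64 without replicate 2). CYP7A1, the rate-limiting enzyme of bile acid synthesis, was at 1.31, 3.23 and 7.08 CPM in MLE-BDL and 0.469, 5.56 and 49.1 CPM in ENT-sham. All MLE-BDL pigs lay inside the ENT-sham range, and its call (log2 fold change -1.79 ± 0.62, adjusted p = 0.02) was lost without ENT-sham replicate 2 (-1.32, adjusted p = 0.075), without ENT-sham replicate 12 (-1.48), with the identifier block (-1.42) and in the 5 shared-number pigs (-2.22). Without ENT-sham replicate 2 the other fall called, beside SLC27A5, was HSD17B4 (-1.02, adjusted p = 1.2e-12). With all pigs HSD17B4 was at -0.94 and not called. CYP8B1, which makes the cholic acid branch, was near the limit of counting at 0.156, 0.771 and 2.14 CPM in MLE-BDL and 0, 0 and 0.296 CPM in ENT-sham. It was the member called higher (log2 fold change 3.84 ± 0.72, adjusted p = 2.3e-05, or 4.71 without replicate 2).

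The called uptake carriers fell, and the called exporters rose. Among bile acid and organic anion transporters 4 rose and 2 fell of 15 tested (4 rose and 2 fell without ENT-sham replicate 2), while the median of -0.13 (-0.17 without ENT-sham replicate 2) turned to 0.05 with library totals. SLC10A1, the sodium-dependent bile acid importer, was at 158, 182 and 229 CPM in MLE-BDL and 345, 388 and 510 CPM in ENT-sham. Its groups were apart (log2 fold change -1.10 ± 0.17, adjusted p = 8.9e-07, or -1.12 without replicate 2), although the change was -0.92 with library totals. SLCO1A2, an organic anion importer, fell (log2 fold change -2.68 ± 0.27, adjusted p = 1.1e-11, or -2.77 without replicate 2), also with no overlap. ABCC4, which pumps bile acids back into blood, was at 20.8, 32.9 and 45.3 CPM in MLE-BDL, 7.91, 10.7 and 12.1 CPM in 11 ENT-sham pigs and 32.4 CPM in ENT-sham replicate 2. Replicate 2 lay inside the MLE-BDL range, and all 8 MLE-BDL pigs were above the other 11 (log2 fold change 1.42 ± 0.18, adjusted p = 1.1e-08, or 1.64 without replicate 2). SLC51A, a subunit of the basolateral bile acid exporter (chosen after its values were seen), was at 2.65, 9.65 and 18.7 CPM in MLE-BDL and 0.373, 0.745 and 8.54 CPM in ENT-sham. It rose (log2 fold change 2.72 ± 0.59, adjusted p = 2.3e-04, or 3.56 without replicate 2), and replicate 2 was again the highest control.

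Of the bile acid sensors 1 rose and 1 fell of 10 tested (1 rose and 1 fell without ENT-sham replicate 2), and the median log2 fold change was -0.31 (-0.35 without ENT-sham replicate 2). NR1I3, the CAR receptor that drives many P450 genes, was at 3.51, 5.36 and 10.2 CPM in MLE-BDL and 13.9, 28.1 and 38.3 CPM in ENT-sham. No overlap was seen (log2 fold change -2.20 ± 0.27, adjusted p = 4.2e-09, or -2.27 without replicate 2). VDR, the vitamin D receptor, which also binds lithocholic acid, rose from a very low level, 0, 0.115 and 1.23 CPM in ENT-sham to 0.436, 0.795 and 3.23 CPM in MLE-BDL (log2 fold change 2.58 ± 0.53, adjusted p = 8.1e-05, or 3.41 without replicate 2, and 3.88 and not called in the 5 shared-number pigs). The ranges overlapped with and without ENT-sham replicate 2.

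In the list of cholesterol synthesis 2 rose of 23 tested (2 rose without ENT-sham replicate 2), but 16 were higher and 1 lower at adjusted p under 0.05 with any fold change, beside 18.3% and 17.0% of all genes, and the median log2 fold change was 0.39 (0.38 without ENT-sham replicate 2). HMGCS1, the synthase that feeds the mevalonate pathway, was at 651, 868 and 1131 CPM in MLE-BDL and 105, 187 and 549 CPM in ENT-sham. Every MLE-BDL pig was above every ENT-sham pig, of which replicate 2 was the highest at 549 CPM (log2 fold change 1.94 ± 0.21, adjusted p = 1.2e-10, or 2.13 without replicate 2). In the sterol efflux list 1 rose of 13 tested (1 rose without ENT-sham replicate 2), or 7.69%, beside 8.64% of all genes. The median log2 fold change was 0.03 (0.03 without ENT-sham replicate 2). The member called was NPC1L1, which takes cholesterol up from bile and gut. It rose (log2 fold change 2.63 ± 0.32, adjusted p = 2.6e-09, or 3.01 without replicate 2) with no overlap of groups. The exporters ABCG5 (0.42), ABCG8 (0.39), ABCA1 (0.03) and ABCG1 (-0.17) were not called.

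Lipogenesis genes fell in part, where 1 rose and 4 fell of 20 tested (1 rose and 4 fell without ENT-sham replicate 2); the median of -0.14 (-0.17 without ENT-sham replicate 2) was 0.05 with library totals. DGAT2, which forms triglyceride, was at 14.4, 26.8 and 35.4 CPM in MLE-BDL and 60.6, 90 and 136 CPM in ENT-sham. The groups were fully apart (log2 fold change -1.86 ± 0.23, adjusted p = 3.4e-09, or -1.91 without replicate 2). THRSP, a lipogenic regulator, fell by 1.75 on the log2 scale (-1.83 without replicate 2, and -1.13 and not called in the 5 shared-number pigs) with overlap, and MLXIPL, the carbohydrate response factor ChREBP, by 1.06 (-1.10 without replicate 2 and -0.88 with library totals). In fatty acid oxidation and PPARA targets 2 rose and 3 fell of 29 tested (2 rose and 3 fell without ENT-sham replicate 2), and the median log2 fold change was 0.10 (0.06 without ENT-sham replicate 2). PDK4, a kinase that slows glucose oxidation, was at 29.9, 45.7 and 90.2 CPM in MLE-BDL and 101, 197 and 323 CPM in ENT-sham. All MLE-BDL pigs were lower (log2 fold change -1.94 ± 0.25, adjusted p = 7.7e-09, or -1.95 without replicate 2, and -2.13 and not called in the 5 shared-number pigs). FGF21, a hepatic stress and fasting hormone, rose (log2 fold change 1.35 ± 0.28, adjusted p = 9.9e-05, or 1.46 without replicate 2), and its ranges overlapped only through ENT-sham replicate 2.

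Apolipoprotein and lipoprotein genes fell in part, where 1 rose and 5 fell of 22 tested (1 rose and 5 fell without ENT-sham replicate 2), and the median log2 fold change was -0.48 (-0.54 without ENT-sham replicate 2). APOA5, which promotes clearance of triglyceride, was at 3.24, 4.59 and 10.3 CPM in MLE-BDL and 19.9, 45.5 and 112 CPM in ENT-sham. There was no overlap (log2 fold change -3.31 ± 0.39, adjusted p = 1.5e-09, or -3.40 without replicate 2). APOF, an inhibitor of cholesteryl ester transfer, fell by 1.95 on the log2 scale (-2.01 without replicate 2), likewise without overlap. The rising member was LPL, the lipase of peripheral capillaries, chosen after its values were seen. It was at 0.523, 2.52 and 9.09 CPM in MLE-BDL and 0, 0.135 and 0.761 CPM in ENT-sham. It rose (log2 fold change 3.79 ± 0.59, adjusted p = 6.7e-07, or 4.26 without replicate 2, and 5.38 and not called in the 5 shared-number pigs), with 6 of 8 MLE-BDL pigs above every ENT-sham pig.

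Genes of proteins that the liver secretes into plasma fell in part. Among hepatocyte identity and secreted proteins 5 fell of 23 tested (5 fell without ENT-sham replicate 2), and the median log2 fold change was -0.44 (-0.47 without ENT-sham replicate 2). ALB fell (log2 fold change -1.11 ± 0.17, adjusted p = 3.1e-07, or -1.20 without replicate 2), and replicate 2, at 27322 CPM, was the only ENT-sham pig inside the MLE-BDL range. TTR, the carrier of thyroid hormone and retinol-binding protein, fell by 1.12 on the log2 scale (-1.19 without replicate 2), APOC3 by 1.22 (-1.28 without replicate 2) and APOH by 1.07 (-1.13 without replicate 2). With library totals, ALB (-0.92), TTR (-0.93), APOH (-0.88) and FGB, the fibrinogen beta chain (-0.81), stayed lower but were no longer called. The summed level of the list was 125007, 135957 and 144211 CPM in MLE-BDL, 111208, 195783 and 223549 CPM in ENT-sham and 167989, 201566 and 223549 CPM in the 11 ENT-sham pigs without replicate 2, with ALB 23.6% of the sum in MLE-BDL and 36.5% in ENT-sham.

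Acute-phase proteins, which the liver makes in response to IL-6 and other cytokines, fell in part. In this list 8 fell of 26 tested (1 rose and 8 fell without ENT-sham replicate 2). At adjusted p under 0.05 and any fold change 1 was higher and 16 lower, beside 18.3% and 17.0% of all genes. The median log2 fold change was -0.88 (-0.95 without ENT-sham replicate 2). Of the genes named CRP, which encode C-reactive protein, the one with identifier 396842 was at 3.24, 8.2 and 16.1 CPM in MLE-BDL and 7.53, 108 and 330 CPM in ENT-sham. Its lowest ENT-sham pig was replicate 2, and the other 11 lay above all MLE-BDL pigs (log2 fold change -3.94 ± 0.57, adjusted p = 2.0e-07, or -4.07 without replicate 2, and -4.03 and not called in the 5 shared-number pigs). SAA2, a serum amyloid, varied widely among ENT-sham pigs, at 1.49, 7.75 and 13.3 CPM in MLE-BDL and 4.03, 52.8 and 839 CPM in ENT-sham. It fell (log2 fold change -4.08 ± 1.01, adjusted p = 0.001, or -4.21 without replicate 2, and -2.52 and not called in the 5 shared-number pigs), with only 2 of 8 MLE-BDL pigs below every control. CRP and SAA genes have near copies, which makes their single values uncertain.

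Of coagulation and complement genes 3 fell of 34 tested (3 fell without ENT-sham replicate 2), or 8.82%. Of all genes 4.24% were called lower and 8.64% in either direction. At adjusted p under 0.05 and any fold change 26 were lower, beside 17.0% of all genes. The median log2 fold change was -0.59 (-0.65 without ENT-sham replicate 2). With the identifier block 5 were called. C6, of the terminal complement complex, was at 16.2, 98.3 and 218 CPM in MLE-BDL and 123, 306 and 700 CPM in ENT-sham. It fell (log2 fold change -1.63 ± 0.45, adjusted p = 0.0031, or -1.66 without replicate 2, and -1.76 and not called in the 5 shared-number pigs), and 6 of 8 MLE-BDL pigs were below every ENT-sham pig. MBL2, which opens the lectin pathway of complement, fell (log2 fold change -2.97 ± 0.66, adjusted p = 2.9e-04, or -3.09 without replicate 2), with overlap. C2 fell by 1.14 on the log2 scale (-1.23 without replicate 2), a call lost with library totals (-0.93) and in the 5 shared-number pigs (-0.91). Among receptors of the IL-6 family 2 rose and 2 fell of 7 tested (2 rose and 2 fell without ENT-sham replicate 2), and the median log2 fold change was 0.06 (0.03 without ENT-sham replicate 2). IL6R, the receptor for IL-6 itself, was at 53.4, 62.3 and 72.1 CPM in MLE-BDL and 93.6, 133 and 172 CPM in ENT-sham. The groups were apart (log2 fold change -1.10 ± 0.10, adjusted p = 2.9e-13, or -1.15 without replicate 2 and -0.92 with library totals). LEPR, the leptin receptor, fell most in this list, from 78.9, 120 and 299 CPM to 4.96, 8.39 and 25.7 CPM (log2 fold change -3.85 ± 0.35, adjusted p = 6.9e-13, or -3.77 without replicate 2, and -3.55 and not called in the 5 shared-number pigs), with no overlap. CNTFR, a receptor for ciliary neurotrophic factor, rose (log2 fold change 1.28 ± 0.17, adjusted p = 4.0e-08, or 1.28 without replicate 2; 0.56 and not called in the 5 shared-number pigs), with 6 of 8 MLE-BDL pigs above every ENT-sham pig.

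Ductular reaction genes rose in part. Of these 12 rose and 3 fell of 33 tested (17 rose and 2 fell without ENT-sham replicate 2), and the median log2 fold change was 0.71 (1.06 without ENT-sham replicate 2). KRT19, the keratin of bile duct cells, was at 19.4, 43.9 and 80.6 CPM in MLE-BDL and 5.31, 8.05 and 33 CPM in ENT-sham. The highest ENT-sham value came from replicate 2 (33 CPM), and the other 11 did not reach any MLE-BDL pig (log2 fold change 2.15 ± 0.26, adjusted p = 3.4e-09, or 2.48 without replicate 2). LGALS3, galectin 3, was at 9.42, 16.8 and 30.3 CPM in MLE-BDL and 0.312, 0.677 and 9.31 CPM in ENT-sham. Replicate 2 was nearest to MLE-BDL, just under its lowest pig (log2 fold change 3.58 ± 0.46, adjusted p = 1.2e-08, or 4.63 without replicate 2, and 4.09 and not called in the 5 shared-number pigs). SPP1, osteopontin, rose by 2.14 on the log2 scale (2.53 without replicate 2, and 2.11 and not called in the 5 shared-number pigs). The list had 35 genes in the table, all with counts, and their summed level was 1969, 2308 and 3052 CPM in MLE-BDL, 1387, 1613 and 2835 CPM in ENT-sham and 1387, 1575 and 1848 CPM in the 11 ENT-sham pigs without replicate 2. CDH1, also expressed by hepatocytes, was its most abundant gene, at 20.7% of the sum in MLE-BDL and 29% in ENT-sham.

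MMP7, a matrix protease of injured bile ducts (identifier 397411, chromosome 9, 33214590 to 33225080), turned on ENT-sham replicate 2. It was at 29.1, 49.1 and 59.9 CPM in MLE-BDL and 2.5, 4.09 and 226 CPM in ENT-sham. Replicate 2 held the highest level at 226 CPM, above every MLE-BDL pig, while the other 11 were at 2.5, 3.94 and 9.92 CPM, below every MLE-BDL pig. With all 12 pigs MMP7 was not called (log2 fold change 1.02 ± 0.54, adjusted p = 0.13), and without replicate 2 it was (3.27, adjusted p = 1.1e-13), as it was with the identifier block on all pigs (2.70). SOX9, the transcription factor of duct cells, was at 13.3, 19.3 and 23.9 CPM in MLE-BDL and 3.95, 6.5 and 37.6 CPM in ENT-sham. Its log2 fold change was 0.89 (adjusted p = 0.015), under the fold threshold, and 1.28, adjusted p = 5.3e-05 without replicate 2, which held the highest control value (37.6 CPM).

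**Figure D2:**
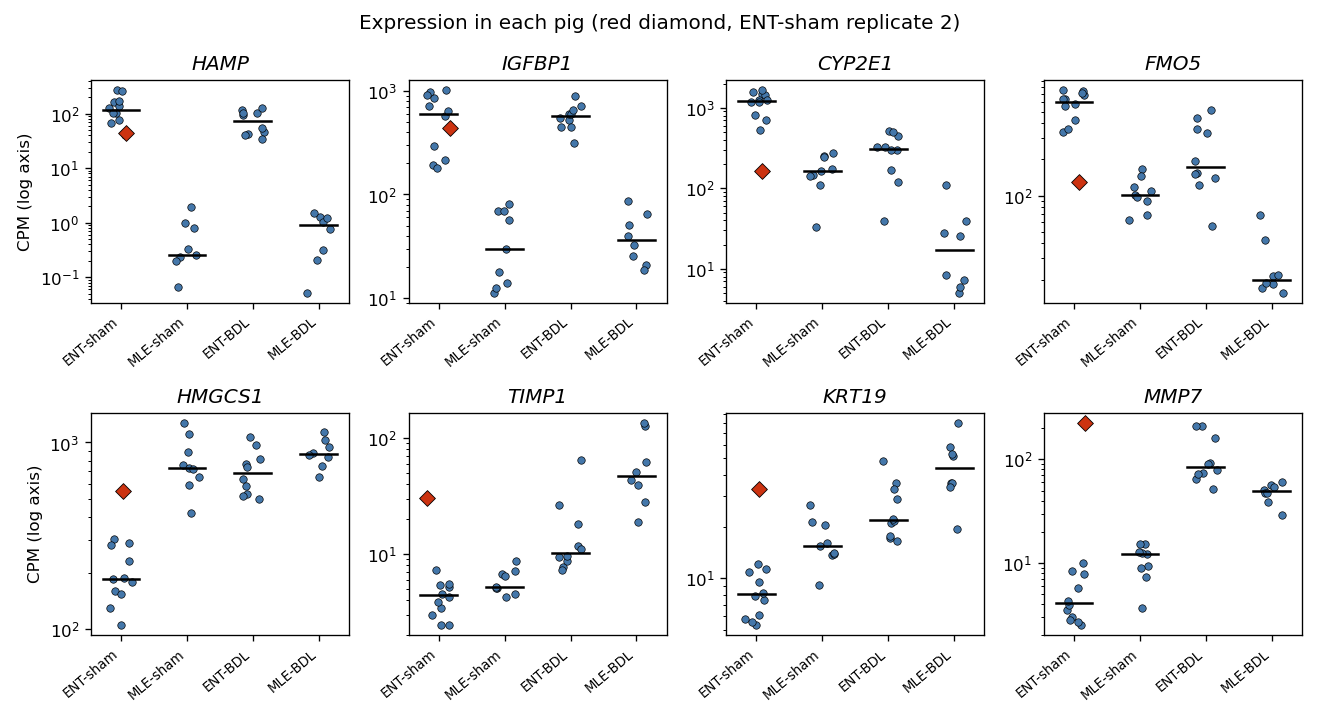
CPM of each pig (points, log axis) in ENT-sham, MLE-sham, ENT-BDL and MLE-BDL with group medians (bars) and ENT-sham replicate 2 as a red diamond. HAMP and IGFBP1 are low in both MLE groups, ENT-sham replicate 2 has an MMP7 level of 226 CPM, above every other pig drawn, and an MLE-sham pig with no HAMP counts is not drawn.

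Matrix genes rose in part. In the list 12 rose and 2 fell of 46 tested (18 rose and 2 fell without ENT-sham replicate 2), and the median log2 fold change was 0.79 (0.92 without ENT-sham replicate 2). TIMP1, an inhibitor of matrix proteases, was at 18.9, 47.2 and 135 CPM in MLE-BDL and 2.44, 4.43 and 30.5 CPM in ENT-sham. Only ENT-sham replicate 2, at 30.5 CPM, reached the MLE-BDL range (log2 fold change 3.25 ± 0.49, adjusted p = 4.0e-07, or 3.85 without replicate 2, and 4.34 and not called in the 5 shared-number pigs). VCAN, the proteoglycan versican, rose by 2.20 on the log2 scale (2.48 without replicate 2, and 2.61 and not called in the 5 shared-number pigs). COL1A1, the main fibrillar collagen (chosen after its values were seen), was at 526, 1124 and 1831 CPM in MLE-BDL and 202, 319 and 1192 CPM in ENT-sham. It rose (log2 fold change 1.49 ± 0.35, adjusted p = 5.0e-04, or 1.76 without replicate 2), and its ranges overlapped with and without replicate 2. COL18A1, a basement membrane collagen also made by hepatocytes, fell (log2 fold change -1.05 ± 0.14, adjusted p = 3.7e-08, or -1.11 without replicate 2), a call lost without MLE-BDL replicate 7 (-0.99) and with library totals (-0.86).

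Stellate cell and TGF-beta genes rose in part, where 5 rose of 32 tested (5 rose without ENT-sham replicate 2). At adjusted p under 0.05 and any fold change 12 were higher and 5 lower, beside 18.3% and 17.0% of all genes. The members named here were all on the higher side. The median log2 fold change was 0.25 (0.32 without ENT-sham replicate 2). S100A6, a calcium-binding protein of mesenchymal and duct cells, was at 34.2, 54.9 and 91.4 CPM in MLE-BDL and 1.12, 1.69 and 33.9 CPM in ENT-sham. Replicate 2 stood at 33.9 CPM, next to the lowest MLE-BDL pig and far above the other 11 ENT-sham pigs (log2 fold change 3.62 ± 0.45, adjusted p = 5.8e-09, or 4.92 without replicate 2). VIM, vimentin, rose (log2 fold change 1.11 ± 0.16, adjusted p = 1.3e-07, or 1.24 without replicate 2, and 1.04 and not called in the 5 shared-number pigs; 0.99 without MLE-BDL replicate 3). TGFB1, the main fibrogenic cytokine, had a log2 fold change of 0.40 (adjusted p = 0.014, or 0.43 without replicate 2) and was not called. The 33 genes of this list summed to 1550, 1787 and 2312 CPM in MLE-BDL, 1171, 1404 and 1865 CPM in ENT-sham and 1171, 1360 and 1580 CPM in the 11 ENT-sham pigs without replicate 2, with ITGB1 at 17.4% of the sum in MLE-BDL and 19% in ENT-sham.

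Genes of the actin cytoskeleton and focal adhesion rose in part, where 8 rose of 33 tested (9 rose without ENT-sham replicate 2), and the median log2 fold change was 0.34 (0.35 without ENT-sham replicate 2). ANXA2, which links membranes to actin, was at 104, 117 and 161 CPM in MLE-BDL and 40.5, 53.2 and 83.4 CPM in ENT-sham. The groups did not overlap (log2 fold change 1.17 ± 0.12, adjusted p = 1.3e-11, or 1.22 without replicate 2). TUBB2B, a beta tubulin, rose by 2.05 on the log2 scale (2.07 without replicate 2) and S100A11 by 1.18 (1.23 without replicate 2), also without overlap. XIRP1, an actin-binding protein known from striated muscle, was at 5.72, 18.4 and 28.1 CPM in MLE-BDL and 0, 0.126 and 15.2 CPM in ENT-sham. It rose (log2 fold change 3.49 ± 0.72, adjusted p = 1.1e-04, or 6.60 without replicate 2), and replicate 2, at 15.2 CPM, was far above the other 11, at 0, 0.104 and 0.502 CPM.

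Other large rises lay outside the lists. S100G, calbindin D9k, a vitamin D target (identifier 397265, chromosome X, 13107611 to 13114213), was at 29.7, 43.1 and 80.8 CPM in MLE-BDL and 0.387, 1 and 14 CPM in ENT-sham. All MLE-BDL pigs were above all ENT-sham pigs, of which replicate 2 was the highest (log2 fold change 4.38 ± 0.50, adjusted p = 8.4e-10, or 5.25 without replicate 2). MAL, a protein of apical sorting, was at 46.5, 65.5 and 76.9 CPM in MLE-BDL and 0.61, 5.9 and 10.4 CPM in ENT-sham. Here replicate 2, at 4.19 CPM, was not the highest control, and the groups were again apart (log2 fold change 3.44 ± 0.33, adjusted p = 5.5e-12, or 3.39 without replicate 2). S100A2 rose by 3.68 on the log2 scale (4.57 without replicate 2), ANKRD33 by 3.70 (3.77 without replicate 2) and IGSF23 by 3.39 (5.27 without replicate 2). Among large falls outside the lists, RTP3, a receptor-transporting protein, was at 1.59, 3.04 and 6.43 CPM in MLE-BDL and 5.84, 53.8 and 110 CPM in ENT-sham. Only ENT-sham replicate 2 reached the MLE-BDL range (log2 fold change -3.92 ± 0.52, adjusted p = 2.8e-08, or -4.05 without replicate 2).

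Macrophage genes split. Of 26 tested, 6 rose and 2 fell (6 rose and 3 fell without ENT-sham replicate 2), and the median log2 fold change was -0.35 (-0.40 without ENT-sham replicate 2). At adjusted p under 0.05 and any fold change 8 were higher and 13 lower, beside 18.3% and 17.0% of all genes. The members named here were all among those that rose. GPNMB, a glycoprotein of lipid-laden macrophages, was at 139, 186 and 234 CPM in MLE-BDL and 29.5, 43.1 and 123 CPM in ENT-sham. The ranges did not overlap (log2 fold change 1.76 ± 0.25, adjusted p = 1.5e-07, or 1.92 without replicate 2). TREM2, a receptor of macrophages in injured tissue, was at 0.206, 1.76 and 4.04 CPM in MLE-BDL and 0, 0.0246 and 1.06 CPM in ENT-sham. Its highest control was replicate 2, and the other 11 ENT-sham pigs were at 0, 0 and 0.125 CPM, near the limit of counting. TREM2 rose (log2 fold change 3.68 ± 0.55, adjusted p = 2.5e-07, or 5.53 without replicate 2). CCR2, the receptor of recruited monocytes, rose by 1.35 on the log2 scale (1.53 without replicate 2). The list's summed level was 8263, 9301 and 10567 CPM in MLE-BDL, 9911, 12616 and 15376 CPM in ENT-sham and 10661, 12834 and 15376 CPM in the 11 ENT-sham pigs without replicate 2, of which APOE, made mainly by hepatocytes, was 79.7% in MLE-BDL and 78.7% in ENT-sham.

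In other immune and vascular lists 15.4% of neutrophil, 4.35% of T, NK and B cell and 5.26% of endothelial genes were called. Among all genes 8.64% were called, 4.40% higher and 4.24% lower. For neutrophils 2 rose of 13 tested (2 rose without ENT-sham replicate 2), the median log2 fold change was 0.64 (0.78 without ENT-sham replicate 2), and the summed level was 37.6, 65.7 and 99.3 CPM in MLE-BDL, 38.7, 54.8 and 75.7 CPM in ENT-sham and 38.7, 54.7 and 75.7 CPM in the 11 ENT-sham pigs without replicate 2, mostly FCGR3A (54.5% in MLE-BDL, 67% in ENT-sham). With the identifier block 6 were called. CSF3R, the G-CSF receptor, rose by 1.46 on the log2 scale (1.64 without replicate 2) and MMP9 by 1.91 (2.52 without replicate 2). T, NK and B cell genes had 1 call, CD79B, lower and at trace level (0.106, 0.216 and 0.261 CPM in MLE-BDL and 0.0846, 0.514 and 0.969 CPM in ENT-sham), of 23 tested, the same count without replicate 2. The log2 fold change of CD79B was -1.40 ± 0.44 (adjusted p = 0.0096, or -1.52 without replicate 2). The median of the list was -0.07 (-0.10 without ENT-sham replicate 2), or 0.09 with library totals, and its sum was 32, 43.9 and 70.4 CPM in MLE-BDL, 39.6, 51.2 and 75.4 CPM in ENT-sham and 39.6, 52.9 and 75.4 CPM in the 11 ENT-sham pigs without replicate 2, with CD4 at 37.6% in MLE-BDL and 42.2% in ENT-sham. Among endothelial genes 1 fell of 19 tested (3 fell without ENT-sham replicate 2), and the median log2 fold change was -0.33 (-0.37 without ENT-sham replicate 2). That count was 2 with the identifier block, 3 also without ENT-sham replicate 8 or 9, and 2 without ENT-sham replicate 4 or 10 or MLE-BDL replicate 1, 5, 6 or 8. CLEC4G, a lectin of sinusoidal endothelium, was at 31.7, 76.3 and 101 CPM in MLE-BDL and 115, 193 and 278 CPM in ENT-sham. It fell with no overlap (log2 fold change -1.34 ± 0.21, adjusted p = 7.0e-07, or -1.40 without replicate 2), beside a summed endothelial level of 1429, 1596 and 1746 CPM in MLE-BDL, 1304, 2145 and 2831 CPM in ENT-sham and 1304, 2199 and 2831 CPM in the 11 ENT-sham pigs without replicate 2, with STAB2 at 16% in MLE-BDL and 14% in ENT-sham. The part of cell numbers in these changes was not tested.

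Inflammatory signalling and chemokine genes rose in part, where 8 rose and 1 fell of 43 tested (10 rose and 1 fell without ENT-sham replicate 2), and the median log2 fold change was 0.12 (0.19 without ENT-sham replicate 2). TNFRSF12A, the receptor of TWEAK, a cytokine of duct expansion, was at 26.9, 35.1 and 52.5 CPM in MLE-BDL and 0.596, 2.33 and 26.9 CPM in ENT-sham. Replicate 2 was at 26.9 CPM, while the other 11 ENT-sham pigs were at 0.596, 2.21 and 2.81 CPM (log2 fold change 3.16 ± 0.38, adjusted p = 2.3e-09, or 4.21 without replicate 2). CXCL14, a chemokine of epithelia, rose by 2.17 on the log2 scale (2.22 without replicate 2, and 2.02 and not called in the 5 shared-number pigs) and IKBKE, a kinase of interferon and NF-kB signalling, by 1.41 (1.61 without replicate 2). Of 27 type I interferon-stimulated genes, edgeR called 0 with and without replicate 2 and DESeq2 called 0, with 0 higher and 1 lower at an unadjusted p under 0.05. With the identifier number as a block 8 were called. The median log2 fold change was -0.33 (-0.40 without ENT-sham replicate 2). At adjusted p under 0.05 and any fold change 1 was lower, beside 17.0% of all genes. That gene was STAT2, a transducer of interferon signals, at 124, 141 and 165 CPM in MLE-BDL and 145, 189 and 267 CPM in ENT-sham (log2 fold change -0.42 ± 0.12, adjusted p = 0.003, or -0.46 without replicate 2).

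Stress genes that respond to misfolded protein or amino acid shortage rose in part. For ER folding 4 rose of 32 tested (3 rose without ENT-sham replicate 2), and the median log2 fold change was 0.24 (0.20 without ENT-sham replicate 2). DERL3, which helps remove misfolded proteins from the ER, was at 5.28, 20.3 and 41.7 CPM in MLE-BDL and 2.38, 3.33 and 11.3 CPM in ENT-sham. In 7 of 8 MLE-BDL pigs it was above every ENT-sham pig (log2 fold change 2.44 ± 0.37, adjusted p = 6.5e-07, or 2.41 without replicate 2, and 3.28 and not called in the 5 shared-number pigs). CRELD2, an ER chaperone-like protein, rose by 1.35 on the log2 scale (1.28 without replicate 2). HSPA5, the main ER chaperone, was at 715, 1482 and 2113 CPM in MLE-BDL and 403, 763 and 975 CPM in ENT-sham. It rose (log2 fold change 1.04 ± 0.19, adjusted p = 1.7e-05) but stood at or under the fold threshold without ENT-sham replicate 1 (1.00), 2 (0.98) or 6 (0.99) and without MLE-BDL replicate 4 (0.95) or 7 (0.98).

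In the list of ATF4 stress and serine synthesis 9 rose of 25 tested (7 rose without ENT-sham replicate 2), and the median log2 fold change was 0.50 (0.48 without ENT-sham replicate 2). DDIT3, the stress factor CHOP, was at 13.4, 19.4 and 24.3 CPM in MLE-BDL and 4.54, 5.75 and 9 CPM in ENT-sham. All MLE-BDL pigs were higher (log2 fold change 1.68 ± 0.20, adjusted p = 1.4e-09, or 1.65 without replicate 2). TRIB3, a pseudokinase induced by ATF4, rose by 1.99 on the log2 scale (1.91 without replicate 2), DDIT4, an inhibitor of mTORC1, by 1.80 (1.84 without replicate 2), and CHAC1, which degrades glutathione and was chosen after its values were seen, by 3.44 (3.89 without replicate 2). Aminoacyl-tRNA synthetases, which load amino acids onto tRNA, were called in 0 of 20 cases by edgeR, with and without replicate 2, and by DESeq2, with 17 higher and 0 lower at an unadjusted p under 0.05. With library totals 1 was called. At adjusted p under 0.05 and any fold change 16 were higher and 0 lower, beside 18.3% and 17.0% of all genes, and the median log2 fold change was 0.39 (0.35 without ENT-sham replicate 2). IARS, which loads isoleucine, was at 105, 117 and 134 CPM in MLE-BDL and 73, 83.3 and 89.4 CPM in ENT-sham, with no overlap and a log2 fold change of 0.51 (0.48 without replicate 2; adjusted p = 7.1e-10).

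Metal-binding and oxidative stress genes rose in some members. Among metallothioneins and zinc and manganese transporters 3 rose of 12 tested (2 rose without ENT-sham replicate 2), and the median log2 fold change was 0.29 (0.29 without ENT-sham replicate 2). MT3 was at 157, 292 and 391 CPM in MLE-BDL and 12.9, 50.7 and 92.8 CPM in ENT-sham. It rose without overlap (log2 fold change 2.52 ± 0.30, adjusted p = 2.3e-09, or 2.56 without replicate 2). MT1D, an abundant metallothionein, was at 6377, 7848 and 9565 CPM in MLE-BDL and 2312, 3622 and 4784 CPM in ENT-sham (log2 fold change 1.12 ± 0.13, adjusted p = 3.3e-10, or 1.10 without replicate 2). Metallothioneins are near copies of each other, which makes the split between them uncertain. For NRF2 and glutathione 3 rose of 23 tested (3 rose without ENT-sham replicate 2), and the median log2 fold change was 0.04 (-0.01 without ENT-sham replicate 2). SRXN1, which repairs peroxiredoxins, was at 27.8, 32.8 and 38.8 CPM in MLE-BDL and 5.2, 6.55 and 37.4 CPM in ENT-sham. Replicate 2 held the highest control value, and all 8 MLE-BDL pigs were above the other 11 (log2 fold change 1.71 ± 0.26, adjusted p = 7.1e-07, or 2.11 without replicate 2). GPX3, a plasma glutathione peroxidase, rose by 2.03 on the log2 scale (2.15 without replicate 2; 0.90 and not called in the 5 shared-number pigs).

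Hypoxia-response genes, many of them glycolytic, rose in part, where 6 rose of 21 tested (6 rose without ENT-sham replicate 2), and the median log2 fold change was 0.26 (0.25 without ENT-sham replicate 2). PFKFB3, which speeds glycolysis, was at 43.5, 53.8 and 82.3 CPM in MLE-BDL and 4.16, 7.8 and 36.8 CPM in ENT-sham. The groups did not overlap (log2 fold change 2.28 ± 0.33, adjusted p = 2.4e-07, or 2.58 without replicate 2). HK2, the hexokinase of muscle and of growing cells (chosen after its values were seen), rose from 0, 0.086 and 1.02 CPM to 0.732, 1.45 and 4.5 CPM (log2 fold change 3.33 ± 0.50, adjusted p = 3.0e-07, or 4.13 without replicate 2, and 5.69 and not called in the 5 shared-number pigs). SLC2A1, a widely expressed glucose transporter, rose by 1.31 on the log2 scale (1.38 without replicate 2) and NDRG1 by 1.56 (1.69 without replicate 2, and 1.49 and not called in the 5 shared-number pigs).

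Genes of glucose output and amino acid breakdown fell in part. In that list 1 rose and 8 fell of 35 tested (1 rose and 8 fell without ENT-sham replicate 2), and the median log2 fold change was -0.45 (-0.52 without ENT-sham replicate 2). G6PC, the last enzyme of glucose release, was at 45, 91.9 and 133 CPM in MLE-BDL and 424, 891 and 1324 CPM in ENT-sham. All MLE-BDL pigs were far below all ENT-sham pigs (log2 fold change -3.23 ± 0.33, adjusted p = 2.7e-11, or -3.29 without replicate 2). TDO2, which opens tryptophan breakdown, was at 236, 279 and 287 CPM in MLE-BDL and 526, 737 and 951 CPM in ENT-sham. It fell without overlap (log2 fold change -1.41 ± 0.13, adjusted p = 9.3e-13, or -1.44 without replicate 2), and KMO, of the same pathway, by 1.12 (-1.15 without replicate 2 and -0.94 with library totals). Urea cycle and ammonia genes had 0 higher and 2 lower calls of 15 (3 fell without ENT-sham replicate 2), with a median of -0.14 (-0.18 without ENT-sham replicate 2) that was 0.04 with library totals. The calls were RHBG, an ammonia channel (log2 fold change -1.92 ± 0.39, adjusted p = 7.6e-05, or -2.04 without replicate 2, and -1.17 and not called in the 5 shared-number pigs), and GLUL, glutamine synthetase of pericentral hepatocytes (log2 fold change -1.07 ± 0.22, adjusted p = 7.5e-05, or -1.14 without replicate 2), whose call was lost with library totals (-0.89) and in the 5 shared-number pigs (-0.76). For branched-chain amino acids 1 rose of 25 tested (1 rose without ENT-sham replicate 2), or 4%, beside 4.40% of all genes. At adjusted p under 0.05 and any fold change 2 were higher and 10 lower, beside 18.3% and 17.0% of all genes. The median log2 fold change was -0.19 (-0.22 without ENT-sham replicate 2). With the identifier block 2 were called. The call without it was BCAT1, the cytosolic aminotransferase (log2 fold change 1.15 ± 0.15, adjusted p = 2.9e-08, or 1.27 without replicate 2).

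Genes of the growth hormone and IGF axis fell in part, where 1 rose and 4 fell of 18 tested (1 rose and 4 fell without ENT-sham replicate 2), and the median log2 fold change was -0.47 (-0.52 without ENT-sham replicate 2). IGFBP1, an IGF-binding protein that insulin represses, was at 18.7, 36.1 and 85.9 CPM in MLE-BDL and 180, 606 and 1020 CPM in ENT-sham. No pig overlapped, and replicate 2 stood among the other controls at 435 CPM (log2 fold change -3.79 ± 0.53, adjusted p = 9.7e-08, or -3.83 without replicate 2). GHR, the growth hormone receptor, was at 19.9, 28.1 and 37.2 CPM in MLE-BDL and 39.8, 71.6 and 90 CPM in ENT-sham. It fell without overlap (log2 fold change -1.31 ± 0.15, adjusted p = 8.6e-10, or -1.38 without replicate 2), and so did SOCS2, a target of that receptor (log2 fold change -2.31 ± 0.27, adjusted p = 1.3e-09, or -2.32 without replicate 2, and -2.78 and not called in the 5 shared-number pigs).

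Clock genes fell in part, where 6 fell of 21 tested (6 fell without ENT-sham replicate 2), and the median log2 fold change was -0.42 (-0.38 without ENT-sham replicate 2). HLF, a transcription factor of the PAR bZIP family, was at 17.2, 22.9 and 29.1 CPM in MLE-BDL and 43.1, 78.8 and 107 CPM in ENT-sham. The groups did not overlap (log2 fold change -1.86 ± 0.16, adjusted p = 1.1e-13, or -1.93 without replicate 2). DBP, of the same family, fell by 1.59 on the log2 scale (-1.64 without replicate 2), with 7 of 8 MLE-BDL pigs below every control. Time of day at collection is not given in the sources used here, and its part was not tested. Cell cycle genes gave 1 call of 40 (1 rose without ENT-sham replicate 2), or 2.5%, beside 8.64% of all genes. At adjusted p under 0.05 and any fold change 9 were higher and 0 lower, beside 18.3% and 17.0% of all genes. The median log2 fold change was 0.23 (0.18 without ENT-sham replicate 2). The gene called was CDKN1A, the arrest factor p21, at 46.4, 51.7 and 70.6 CPM in MLE-BDL and 14.3, 20.7 and 40.4 CPM in ENT-sham (log2 fold change 1.16 ± 0.19, adjusted p = 1.8e-06, or 1.11 without replicate 2). This call was lost with the identifier block (0.87).

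Markers of tissues other than liver were low. Skeletal muscle genes had 16 members in the table, of which MYL1 had no counts in the 20 pigs, and 8 were tested. Of these 3 rose and 1 fell (3 rose and 1 fell without ENT-sham replicate 2), with a median of 0.23 (0.28 without ENT-sham replicate 2), and the summed level was 28.1, 41.7 and 56 CPM in MLE-BDL, 20.4, 26.2 and 32 CPM in ENT-sham and 20.4, 26.3 and 32 CPM in the 11 ENT-sham pigs without replicate 2. TNNI2, a troponin of fast muscle, made up 57.5% of the sum in MLE-BDL and 17.5% in ENT-sham. It was at 13.6, 24 and 37 CPM in MLE-BDL and 1.38, 4.09 and 8.91 CPM in ENT-sham. It rose without overlap (log2 fold change 2.31 ± 0.37, adjusted p = 1.1e-06, or 2.35 without replicate 2), as did CKM, muscle creatine kinase, at 0.635, 1.75 and 5.04 CPM in MLE-BDL and 0, 0.126 and 0.39 CPM in ENT-sham (log2 fold change 3.62 ± 0.44, adjusted p = 2.3e-09, or 3.71 without replicate 2). NEB, nebulin, fell by 2.25 on the log2 scale (-2.34 without replicate 2). Of 15 pancreas and gut genes PRSS2 had no counts, 5 were tested and 1 fell (1 fell without ENT-sham replicate 2), with a median of -0.10 (-0.12 without ENT-sham replicate 2) that was 0.10 with library totals. That was CPA1, a pancreatic protease (log2 fold change -1.11 ± 0.37, adjusted p = 0.016, or -1.18 without replicate 2), whose call was lost with library totals (-0.91), with the identifier block (-0.77) and in the 5 shared-number pigs (-0.60), and the sum was 42.7, 51.8 and 73.5 CPM in MLE-BDL, 30.1, 48.6 and 86.5 CPM in ENT-sham and 30.1, 48.8 and 86.5 CPM in the 11 ENT-sham pigs without replicate 2, mostly VIL1 (65.8% in MLE-BDL, 63.2% in ENT-sham).

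Further named genes were less abundant, near a threshold or less stable. CCDC183 was at 2.61, 6.96 and 24.3 CPM in MLE-BDL and 0.208, 0.632 and 2.28 CPM in ENT-sham. It rose with no overlap (log2 fold change 3.37 ± 0.46, adjusted p = 4.4e-08, or 3.64 without replicate 2). SLC23A3 rose too (log2 fold change 3.28 ± 0.43, adjusted p = 1.8e-08, or 3.60 without replicate 2), and only ENT-sham replicate 2 reached the MLE-BDL range. TSPO2, of the erythroid list, was at 0.9, 1.55 and 1.69 CPM in MLE-BDL and 0, 0.482 and 0.858 CPM in ENT-sham. It rose from this trace level without overlap (log2 fold change 1.68 ± 0.32, adjusted p = 2.5e-05, or 1.68 without replicate 2). SLC7A11, a cystine importer and NRF2 target, rose with overlap (log2 fold change 1.06 ± 0.25, adjusted p = 5.4e-04, or 1.03 without replicate 2), a call lost without ENT-sham replicate 3 (0.97) or 7 (0.94) and without MLE-BDL replicate 4 (0.99) or 6 (0.96). With the identifier block it was 0.70 and not called, and in the 5 shared-number pigs 0.34. SLC30A2, a zinc transporter, lay at both thresholds (log2 fold change 1.01 ± 0.41, adjusted p = 0.05), and its call was lost without ENT-sham replicate 2 (1.01, adjusted p = 0.054) and also without ENT-sham replicate 1, 3, 6, 7, 8, 9, 10, 11 or 12 or MLE-BDL replicate 4, 5, 6, 7 or 8, with values from 0.77 to 1.06, with the identifier block (0.94) and in the 5 shared-number pigs (1.67). FGB was at 5048, 6598 and 7220 CPM in MLE-BDL and 6423, 12644 and 17416 CPM in ENT-sham. It fell (log2 fold change -1.01 ± 0.17, adjusted p = 2.2e-06, or -1.08 without replicate 2), a call lost with library totals (-0.81), with the identifier block (-0.96), without ENT-sham replicate 7, 8 or 12 (-0.98 each) and without MLE-BDL replicate 1 or 2 (-0.97 each). CYP2C32, with near copies and thus uncertain, fell with overlap (log2 fold change -4.34 ± 1.28, adjusted p = 0.006, or -4.17 without replicate 2, and -1.92 and not called in the 5 shared-number pigs). With the identifier block its value was -1.70, and the call was lost.

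To see what each step gave, the same genes were read in MLE-sham and ENT-BDL. PN alone, MLE-sham against ENT-sham, called 601 genes (3.71%), and 673 (4.16%) without ENT-sham replicate 2. BDL alone, ENT-BDL against ENT-sham, called 549 (3.39%), and 801 (4.95%) without it. Ligation on PN, MLE-BDL against MLE-sham, called 612 (3.78%), and PN after ligation, MLE-BDL against ENT-BDL, called 515 (3.18%). These comparisons share pigs with the joint comparison, so their values are only set side by side.

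Several genes were called in MLE-BDL against ENT-BDL and not against MLE-sham. HAMP was at 0, 0.257 and 1.95 CPM in MLE-sham and 34.1, 73.1 and 127 CPM in ENT-BDL. MLE-BDL differed from ENT-BDL by -6.56 (adjusted p = 8.7e-13), while its difference from MLE-sham was 0.57 (adjusted p = 0.65). IGFBP1 was at 11.2, 29.7 and 81.2 CPM in MLE-sham and 316, 573 and 894 CPM in ENT-BDL. MLE-BDL differed from ENT-BDL by -3.76 (adjusted p = 8.0e-07) and from MLE-sham by 0.08 (adjusted p = 0.94). TFRC, MT3, DERL3 and TDO2 had the same layout, with changes from ENT-BDL of 1.79 (adjusted p = 1.8e-09), 2.59 (adjusted p = 3.6e-08), 2.63 (adjusted p = 3.2e-06) and -1.39 (adjusted p = 2.4e-11). Against MLE-sham their values were -0.21 (adjusted p = 0.53), -0.68 (adjusted p = 0.16), -0.04 (adjusted p = 0.97) and 0.08 (adjusted p = 0.76), of which none was called. Whether the changes against ENT-BDL and MLE-sham differ was not tested.

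Other genes were called against MLE-sham and not against ENT-BDL. LGALS3 was at 1.02, 1.56 and 3.53 CPM in MLE-sham and 8.63, 15.6 and 25.8 CPM in ENT-BDL. MLE-BDL differed from MLE-sham by 3.46 (adjusted p = 4.3e-06) and from ENT-BDL by 0.13 (adjusted p = 0.89). SPP1 and GPNMB differed from MLE-sham by 1.54 (adjusted p = 4.3e-04) and 1.40 (adjusted p = 2.4e-04), against -0.03 (adjusted p = 0.97) and -0.09 (adjusted p = 0.87) from ENT-BDL. MMP7 was at 3.65, 12.1 and 15.4 CPM in MLE-sham and 52, 85.1 and 212 CPM in ENT-BDL. It rose from MLE-sham by 2.15 (adjusted p = 0.01), and its log2 fold change from ENT-BDL was -1.20 (adjusted p = 0.15). Whether these changes differ was not tested. A further set differed from both. CYP2E1 was at 33.1, 163 and 274 CPM in MLE-sham and 38.8, 310 and 515 CPM in ENT-BDL, and MLE-BDL was lower than both, with log2 fold changes of -2.59 (adjusted p = 0.0027) and -3.41 (adjusted p = 1.0e-04). FMO5 was lower than in both as well, at -1.93 (adjusted p = 9.4e-05) and -3.14 (adjusted p = 7.2e-09), and ANKRD33 was higher, at 3.25 (adjusted p = 2.0e-06) and 2.65 (adjusted p = 8.4e-06). CYP7A1 went opposite ways, at 0, 0.335 and 2.44 CPM in MLE-sham and 18, 65.8 and 165 CPM in ENT-BDL, with MLE-BDL between them. Its log2 fold changes were 2.84 (adjusted p = 0.014) and -4.31 (adjusted p = 7.7e-06).

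Whether the joint change departed from the sum of the steps on the log2 scale was tested as an interaction of MLE and BDL. At adjusted p under 0.05 and any fold change, edgeR called 10 genes (0.0617%), and 47 (0.291%) without ENT-sham replicate 2; at an unadjusted p under 0.05 the count was 1466. HMGCS1 was among them. It was at 417, 733 and 1277 CPM in MLE-sham and 498, 688 and 1069 CPM in ENT-BDL, and its joint change of 1.94 was below the sum of steps of 1.79 and 1.63 (interaction -1.48, adjusted p = 0.042; 0.0016 without ENT-sham replicate 2). SQLE, which oxidises squalene on the way to cholesterol, and ABCG5, which exports sterols into bile, both chosen after their values were seen, had interactions of -0.87 and -0.92 (adjusted p = 0.043 and 0.042, or 0.016 and 0.01 without ENT-sham replicate 2). In 39 fits that each left out a pig of the 4 groups in the test, the calls of HMGCS1, SQLE and ABCG5 held in 22, 17 and 21. With the identifier block their adjusted p were 0.0028, 0.0052 and 0.0083. The count of genes varied with the fit. It was 76 with the identifier block and 5 with library totals. In 14 of the 39 fits (without ENT-sham 3, 5 or 6, MLE-BDL 2, 3, 4, 5, 6 or 7, MLE-sham 1, 3 or 5, or ENT-BDL 4 or 9) edgeR called 0 genes, with 1304 to 1473 at an unadjusted p under 0.05. It was 1 without MLE-BDL replicate 1 or MLE-sham replicate 9, 2 without MLE-sham replicate 8, 4 when ENT-BDL replicate 3 was left out, and 5 when replicate 5 or 8 of that group was. It was 17 without MLE-BDL replicate 8, 18 without ENT-BDL replicate 1, 19 without ENT-sham replicate 9 and 23 without MLE-sham replicate 2. DESeq2 called 47 on all pigs.

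The emulsion was compared directly after ligation. MLE-BDL against SLE-BDL called 60 genes (0.370%), and 68 (0.420%) without ENT-sham replicate 2, which enters only through the shared fit. The count was 39, 27 and 30 without MLE-BDL replicates 4, 5 and 7, and 35, 91 and 35 without SLE-BDL replicates 5, 6 and 7. With the identifier number as a block it called only 10. Among genes named above, CNTFR was higher in MLE-BDL by 1.26 (adjusted p = 1.7e-05). SULT2A1, APOA5, CYP2C49 and CYP2C36 were lower, with log2 fold changes of -1.82 (adjusted p = 0.0054), -1.76 (adjusted p = 0.009), -2.12 (adjusted p = 0.019) and -2.55 (adjusted p = 0.043), and RTP3 was lower too (adjusted p = 0.028). With the block CNTFR (adjusted p = 0.03) and APOA5 (0.04) were called, and SULT2A1 (0.21), CYP2C49 (0.083), CYP2C36 (0.09) and RTP3 (0.21) were not. Of 19 fits that each left out an MLE-BDL or SLE-BDL pig, all kept the calls of CNTFR, SULT2A1 and APOA5. The call of CYP2C49 was lost without MLE-BDL replicate 5 or 7, that of RTP3 without MLE-BDL replicate 1, 2, 5, 6, 7 or 8 or SLE-BDL replicate 7, and that of CYP2C36 without any MLE-BDL pig other than replicate 2 and without SLE-BDL replicate 4, 5, 7 or 9. The log2 fold changes of HAMP, KRT19 and TIMP1 were 0.18 (adjusted p = 0.94), 0.37 (adjusted p = 0.59) and 0.39 (adjusted p = 0.78), and none passed the test.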

How the data were processed

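Poly-A RNA libraries of liver, 60 in all, were read. The titles of SLE-sham replicates 9 and 10 begin with the same letter and number, as no other titles do, so these may come from the same animal. They differed with a chi-square of 31.7 per degree of freedom over 16372 genes and entered the fit as separate pigs. The authors trimmed reads with fastp, aligned them to Sscrofa11.1 with HISAT2 2.0.5 and deposited counts per gene from featureCounts 1.5.0-p3, without stating the use of strand, so a gene and an antisense partner cannot be told apart. Of 30359 features 24 have no gene name, with 0.01% to 0.0407% of counts per library in the 20 pigs compared, and were left out. Counts of all 60 libraries entered edgeR 4.0.16 (R 4.3.3) with TMM factors, filterByExpr, the robust quasi-likelihood test and Benjamini-Hochberg adjustment over all genes tested. DESeq2 1.42.0 was an alternative, as were other scalings, filters, blocks and the removal of single pigs. The code was tested on simulated data. Named genes were the 12 largest rises and the 12 largest falls among called genes with a symbol and an average log2 CPM of at least 2, up to 3 called members with the smallest adjusted p of each of 41 gene lists (or the member with the smallest p), and CYP7A1, SOX9, MMP7 and TGFB1. They numbered 117, and 9 more were chosen after their values were seen. Some of these genes are not reported here. Of 1021 list entries 980 matched the table, 7 of them by synonym. Members and lists were chosen with earlier results of these data known.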

Additional observations from a re-analysis of the deposited data

Results flagged for a closer look

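In 6 of 126 genes looked at an MLE-BDL pig lay far from the other 7, and chance flags about 1 in 20 groups. LEPR was at 25.7 CPM in replicate 6, against 4.96 to 10.2 CPM in the others. Replicate 2 was high for SLCO1A2 (11.3 CPM, others 3.81 to 6.21 CPM) and DBP (8.71 CPM, others 4.01 to 5.29 CPM) and low for TUBB2B (4.52 CPM, others 6.37 to 7.76 CPM). CLEC4G was low in replicate 3 (31.7 CPM, others 59.7 to 101 CPM), and SLC51A in replicate 8 (2.65 CPM, others 7.73 to 18.7 CPM). The change with BDL differed between MLE and ENT pigs, by the interaction test, for HMGCS1 (-1.48), SQLE (-0.87) and ABCG5 (-0.92) on the log2 scale. These calls lay near the threshold (adjusted p = 0.042, 0.043 and 0.042), and they held in 10, 9 and 10 of 20 fits that left out an MLE-BDL or ENT-sham pig. Over all 39 fits that left out a pig of the 4 groups, they held in 22, 17 and 21.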

How the results depend on the processing

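No named gene reversed its direction in a fit that tested it, but 28 of the 126 were not tested with at least 10 counts in every pig, 3 in either fit of the 2 groups alone and 2 in the 5 shared-number pigs. The joint comparison called 1320 to 1619 genes when each of the 20 pigs was left out in turn, and list genes 174 to 208. With at least 10 counts in every pig it called 652 (304 of them higher) and at any fold change 5711 (2963 higher, 2748 lower). MLE-BDL against SLE-BDL called 109 genes in DESeq2, 39 with at least 10 counts in every pig, 10 with the identifier number as a block, 147 at any fold change and 27 to 91 with an MLE-BDL or SLE-BDL pig left out. The interaction called 47 genes in DESeq2, 17 with at least 10 counts in every pig, 38 without both matching ENT libraries, 76 with the identifier block, 5 with library totals and 0 to 47 with a pig of its 4 groups left out. Leaving out SLE-BDL, MLE-sham and ENT-BDL pigs was chosen after seeing the data. For the steps, whose alternatives were likewise added, MLE-sham against ENT-sham called 250 genes with at least 10 counts in every pig and 3417 at any fold change, and ENT-BDL against ENT-sham 224 and 2823. With a pig of their groups or of MLE-BDL left out they called 547 to 673 and 484 to 801. List genes called at any fold change numbered 504. The cause of these shifts was not tested.

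With the replicate number as a replicate block, the joint comparison called 1363 genes and the interaction 15. The 8 pairs with the same number correlated at -0.154 to 0.0513 (median -0.0613), and 0 of 8 MLE-BDL pigs correlated best with its own number, so the numbers were not taken to pair pigs.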
